A study of Drosophila melanogaster with 2 samples.

Results

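The 9 genes described here, of 13945 protein-coding genes on the 6 chromosome arms used, are the Pax genes ey, toy, eyg and toe, the sine oculis family genes so and Optix, the cofactor gene eya, and dan and danr, all members of the network of nuclear proteins that specifies the fly retina. They were followed in peak lists of Dachshund, a further nuclear protein of that network. Chromatin immunoprecipitation sequencing (ChIP-seq), which maps the DNA that comes down with a protein, had been done with anti-GFP on sonicated chromatin of whole Drosophila melanogaster at the prepupal stage. The animals, males and females together, came from a transgenic line, dac-GFP, stably expressing Dachshund with enhanced GFP at its C-terminus. The only group held 2 biological replicates, numbered 1 and 3, with no other genotype, treatment or stage. The labels' age of 48 days is not that of a prepupa and was not used. Neither a control library nor untagged animals were analysed here. Whether the line kept an untagged copy of dac was not stated. Because whole animals were used, a site occupied in few cells and a site occupied weakly in many cannot be told apart, and retinal tissue is only part of each sample.

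Fly eye development rests on a circuit of transcription factors that switch on and reinforce each other. The Pax6 proteins Eyeless (ey) and Twin of eyeless (toy) act at its top. Sine oculis (so), a homeodomain protein, binds DNA and recruits Eyes absent (eya), a transcriptional cofactor that is also a protein phosphatase, and Dachshund acts downstream of and together with this pair. Optix is a further homeodomain protein of the same family in the eye field. Eyegone (eyg) and Twin of eyegone (toe) are Pax proteins with an incomplete paired domain, with eyg known for promoting growth of the eye, and Distal antenna (dan) and Distal antenna-related (danr) are Pipsqueak-domain nuclear proteins used in both antenna and eye. A listed peak near one of these genes may be enrichment of tagged Dachshund or background, depending on its q-value, and says nothing by itself of regulation.

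The sequences under the strongest peaks of ey, toe and dan are shown first. Each window is at most 300 bp around a summit, the base of highest signal in a peak, and is given on the plus strand of RefSeq's Release 6 assembly (dm6). The ey window, chr4:697498-697688, stops at the base before the transcription start site (TSS), and its capitals mark TGATAC, the core sequence bound by Sine oculis. The toe windows, chr3L:12442581-12442880 and chr3L:12447754-12448053, lie between toe and eyg. Capitals in the second toe window mark a match to the forkhead core TGTTTAC on the minus strand. The dan window, chr3R:25178612-25178911, held a match to none of the 5 motifs searched, and neither did the first toe window.
ey promoter: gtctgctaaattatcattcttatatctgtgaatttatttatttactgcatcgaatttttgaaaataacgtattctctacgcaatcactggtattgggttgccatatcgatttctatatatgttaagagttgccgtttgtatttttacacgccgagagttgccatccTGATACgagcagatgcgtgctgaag
toe first upstream: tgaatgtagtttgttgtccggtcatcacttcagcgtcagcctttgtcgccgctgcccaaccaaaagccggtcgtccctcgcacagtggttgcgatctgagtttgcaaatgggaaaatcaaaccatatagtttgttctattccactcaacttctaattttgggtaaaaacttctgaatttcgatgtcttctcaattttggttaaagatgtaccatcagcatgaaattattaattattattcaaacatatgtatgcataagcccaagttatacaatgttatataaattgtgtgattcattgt
toe second upstream: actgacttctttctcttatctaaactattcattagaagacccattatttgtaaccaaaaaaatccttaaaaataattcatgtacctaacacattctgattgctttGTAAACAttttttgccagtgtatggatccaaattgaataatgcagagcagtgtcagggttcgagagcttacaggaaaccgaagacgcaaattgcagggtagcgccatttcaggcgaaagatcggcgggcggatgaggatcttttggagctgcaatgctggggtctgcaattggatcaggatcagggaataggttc
dan upstream: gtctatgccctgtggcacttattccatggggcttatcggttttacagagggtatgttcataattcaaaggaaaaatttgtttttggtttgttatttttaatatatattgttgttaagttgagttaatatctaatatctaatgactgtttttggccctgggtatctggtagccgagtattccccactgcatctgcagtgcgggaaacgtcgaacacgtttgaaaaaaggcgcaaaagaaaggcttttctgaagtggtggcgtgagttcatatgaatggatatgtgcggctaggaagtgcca

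Only so was reached by the most stringent list. The authors deposited 4 lists of peaks on dm6 that were used here. One, the IDR list, holds 4137 peaks that passed the irreproducible discovery rate (IDR) procedure, which keeps peaks ranked alike in replicates. The others are relaxed lists of 30000 peaks each, for replicate 1, for replicate 3 and for both pooled. Their weak ends hold background by construction. Each peak carries the authors' own signal and q-value. The scale of the signal was not stated and differed between lists, so peaks were compared between lists by rank, with 1 for the highest signal. A q-value of 0.05 or less was reached by 9178 pooled peaks, 5282 of replicate 1 and 13828 of replicate 3. A peak was assigned to a gene when the TSS nearest to its summit among protein-coding genes was the gene's, or when the summit lay in the gene body.

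Of the 9 genes, 1 had an IDR peak, against 18.9% of all protein-coding genes. By the nearest TSS alone the count was also 1, beside 17.6% of all genes, and by the gene body alone it was 0, beside 10.5%. These genes lie in wide intervals. Their territory, meaning the body together with the stretch out to the midpoints with neighbouring TSSs, had a median of 26.4 kb and ranged from 18.6 kb for eyg to 37.7 kb for eya, against a median of 5.25 kb over all genes. Among the 2204 genes with a territory at least as long as the shortest of the 9, a set chosen after the values had been seen, 43.4% had an IDR peak. The 9 territories together span 238 kb and held 4.2 IDR peaks per Mb, where the arms as a whole held 30.9 per Mb. No test was made of these differences, since the genes were chosen with earlier results of these data known.

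The relaxed lists placed peaks near more of the genes. In the pooled list 8 of the 9 had at least 1 assigned peak, beside 48.8% of all genes, and toy had none. At q of 0.05 or less there were 5, namely ey, toe, so, Optix and dan, beside 29.8% of all genes. With peaks in the body or within 5000 bp of it instead, there were 3, beside 53.3%, so whether the 9 genes stood above or below all genes turned on the assignment rule. For the relaxed lists no share was computed among genes with territories as long. In replicate 1 the genes with any peak numbered 8, all but danr, beside 53.4%. At q of 0.05 or less replicate 1 left 1, which was so, beside 20.9%. In replicate 3 there were 7 with any peak, without toy and danr, beside 51.6%, and 6 at q of 0.05 or less, beside 38.5%. Those 6 were the same 5 genes as in the pooled list together with eya. When each replicate was held to its highest 4137 peaks, the length of the IDR list, replicate 1 gave 1 gene, so, beside 18.1%, and replicate 3 gave 2, ey and so, beside 19.6%. The gene so was the only one of the 9 with a peak at that level in both replicates.

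**Figure D1:**
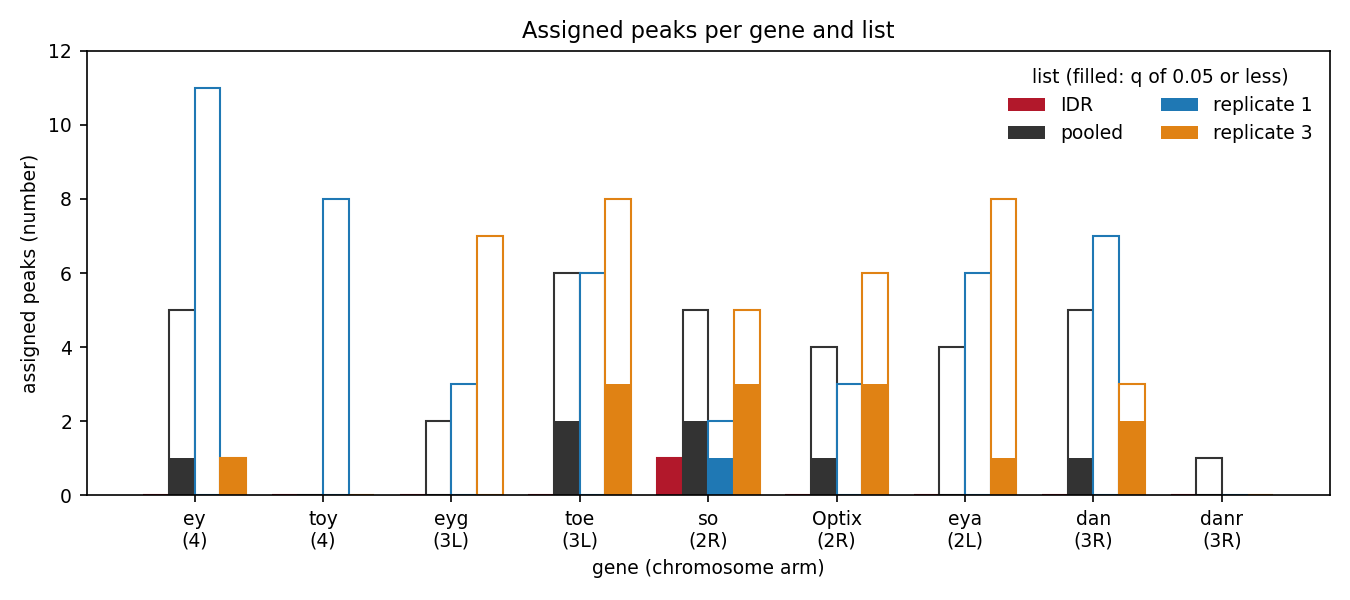
Number of assigned peaks (y axis) for each of the 9 genes with its chromosome arm (x axis), with 1 bar per list and the filled portion of a bar counting peaks at q of 0.05 or less. The only IDR bar is that of so, the tallest bar is the 11 peaks of ey in replicate 1, none of them at q of 0.05 or less, and toy has peaks in replicate 1 alone.

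In all, 32 pooled peaks, 46 peaks of replicate 1 and 38 of replicate 3 were assigned to the 9 genes, and of these 7, 1 and 13 were at q of 0.05 or less. The pooled density over the 9 territories was 134 peaks per Mb, against 224 per Mb over the arms. Replicate 1 had 193 per Mb there and replicate 3 had 159 per Mb, each against 224. Of the 32 pooled peaks, 15 ranked beyond 20000 in the list of 30000, and 25 had a q above 0.05. Over the whole pooled list 9178 of 30000 peaks had a q of 0.05 or less, so most peaks of that list were also above this q. The share differs between genes: psq, for example, had 21 of 40 pooled peaks at that q, and tio had 0 of 4. Summed over the 9 territories, each relaxed list thus had fewer peaks per Mb than over the arms. This sum does not describe each gene: so had 5 pooled peaks in a territory of 20.5 kb, danr 1 in 26.4 kb and toy 0 in 24.3 kb. Chromosome 4, which carries ey and toy, held 69.7 pooled peaks per Mb, 223 of replicate 1 and 25.2 of replicate 3.

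**Figure D2:**
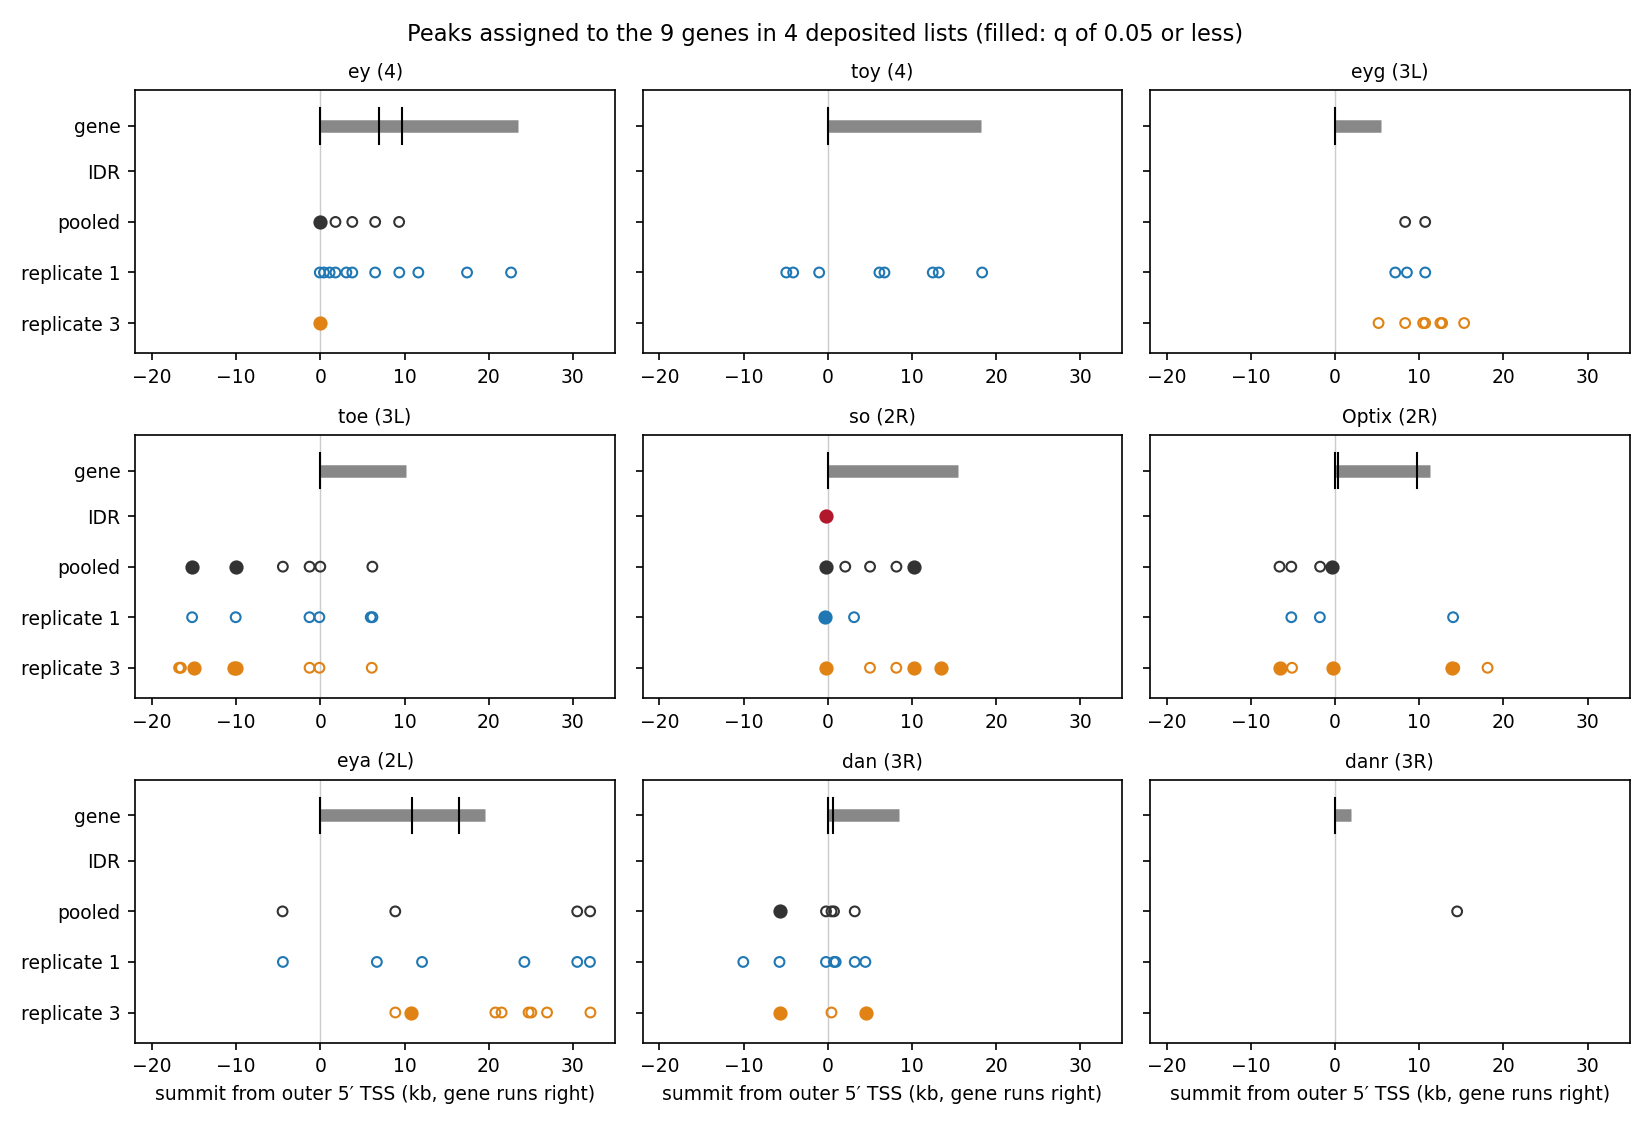
Summits of assigned peaks by distance in kb from the outermost 5′ TSS of each gene (x axis, gene running to the right), with the gene body as a grey bar, its TSSs as black ticks, and 1 line of points per list (y axis). Filled points are at q of 0.05 or less. Only at so do all 4 lists have a filled point at the promoter.

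Among the Pax genes at the top of the circuit, ey (FBgn0005558, 4:697689-721173, plus strand, 3 TSSs) had its best peak at its outermost promoter. In the pooled list this peak, 4:697443-697852, had a signal of 93.1 and a q of 0.0012 at rank 5228, with its summit 41 bp upstream of the TSS. In replicate 3 the overlapping peak ranked 3791, at the lowest q that list contains, 7.2e-05, which 6960 of its peaks share. In replicate 1 the overlapping peak ranked 10915 with a q of 0.33. The lowest signal of any IDR peak was 109.8, so the pooled peak lay below the range of the IDR list. The TGATAC printed in the ey promoter, 4:697664-697669, ended 20 bp before the TSS.

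The other peaks of ey came from replicate 1. Its best ey peak there was in an intron 1790 bp from the TSS, with a q of 0.061 at rank 5589, and no peak of replicate 3 overlapped it. Replicate 1 had 11 ey peaks and replicate 3 had 1. At toy (FBgn0019650, 4:989725-1007922, plus strand) the split was similar. Replicate 1 had 8 peaks, the best of them 147 bp past the 3′ end of the gene with a q of 0.20 at rank 8286, and neither the pooled list nor replicate 3 had any.

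Both genes lie on chromosome 4, where the replicates differed as a whole. Replicate 1 had 300 peaks on that chromosome, 223 per Mb against 224 per Mb on the other arms, and replicate 3 had 34, or 25.2 per Mb against 226. At q of 0.05 or less the counts were 16 and 21. The replicates thus differed at ey and toy in the same direction as over the whole chromosome. There replicate 1 had about the density of the other arms and replicate 3 had few peaks. In replicate 1, ey had 11 peaks and toy 8 in territories of 24.3 kb each, denser than the 223 per Mb of the chromosome. The part of the chromosome-wide difference in the counts at ey and toy was not tested. Of 80 protein-coding genes on chromosome 4, 6 had an IDR peak, namely Cals, PlexA, RpS3A, Sox102F, gw and lgs.

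The Pax genes of eye growth, eyg (FBgn0000625, 3L:12462537-12468021) and toe (FBgn0036285, 3L:12422510-12432668), are neighbours, both on the minus strand, 29.9 kb apart with 0 protein-coding genes wholly between them. That interval held 7 pooled peaks, 7 of replicate 1 and 13 of replicate 3, and 2, 0 and 3 of these were at q of 0.05 or less. It held 0 IDR peaks. The best pooled peak of toe, 3L:12442526-12442935, lay 10063 bp upstream of its TSS with a signal of 90.8 and a q of 0.0014 at rank 5398. In replicate 3 it ranked 4648 at the lowest q of the list, shared by 6960 peaks, and in replicate 1 it ranked 15109. This is the first of the toe windows printed above. The second, under 3L:12447699-12448108, lay 15236 bp upstream with a signal of 62.6 and a q of 0.045 at rank 9026. It was ranked higher by replicate 1, at 6819 with a q of 0.12, than by replicate 3, at 10939 with a q of 0.010. Each of these sites therefore passed q of 0.05 in replicate 3 and missed it in replicate 1. The q-values reached further down the ranks in replicate 3, where 13828 peaks passed, than in replicate 1, where 5282 did.

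No peak of eyg reached q of 0.05 in any list. Its best pooled peak, 3L:12457116-12457525, was 5216 bp past the 3′ end, in the same interval, with a signal of 46.1 and a q of 0.23 at rank 13962. It ranked 13570 in replicate 1 and 25151 in replicate 3. A summit 4 bp from the TSS of toe was also listed, at rank 19330 with a q of 0.44, so the strongest peaks of this pair were away from the promoters of both genes.

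Of the sine oculis family genes, so (FBgn0003460, 2R:7419350-7434872, plus strand) carried the only IDR peak of the 9. It covered 2R:7418904-7419313, with the summit 241 bp upstream of the TSS. The signal was 186 and the rank in the pooled list was 1841. The median signal of the IDR list was 172. In replicate 1 the promoter peak ranked 895, with a signal of 112 and a summit 270 bp upstream, and in replicate 3 it ranked 3841, with a signal of 73.6 and a summit 196 bp upstream. All 4 lists had it at the lowest q they contain. That value is a cap shared by all 4137 IDR peaks, 4496 pooled peaks, 2126 of replicate 1 and 6960 of replicate 3. The replicates placed it differently: its log2 ratio of ranks, replicate 1 over replicate 3, was -2.10, lower than in all but 2.18% of the 17022 pooled peaks found in both lists.

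Inside so, a second pooled peak at 2R:7429372-7429781 had a signal of 63.0 and a q of 0.043 at rank 8949. It lay 10227 bp from the TSS of so, at the promoter of the non-coding gene lncRNA:CR44203, and its nearest protein-coding TSS was that of CG11145. Replicate 3 ranked it 5294 and replicate 1 had no peak there. A further peak of replicate 3 at 2R:7432579-7432974, also in the body of so, had a q of 0.00053 at rank 8474 and was in neither other relaxed list. These sites within so were thus carried by replicate 3 alone, whereas the promoter was in both replicates.

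Optix (FBgn0025360, 2R:8031283-8042529, plus strand), 596 kb and 110 protein-coding genes away from so, had no IDR peak. Its best pooled peak, 2R:8030689-8031098, was at the promoter, 389 bp upstream, with a signal of 64.6 and a q of 0.035 at rank 8641. Replicate 3 ranked it 8176 with a q of 0.00043, and replicate 1 had no overlapping peak. The highest Optix peak of replicate 3, 2R:8044994-8045389, was 2663 bp past the end of the gene with a q of 0.00021 at rank 7255. It overlapped a peak of replicate 1 at rank 11636 with a q of 0.37 but no pooled peak. Another site of replicate 3, in an exon of lncRNA:CR45267 at 2R:8024488-8024883, had a q of 0.0011 at rank 8706. All 3 Optix peaks at q of 0.05 or less in a replicate were from replicate 3. That list had 13828 such peaks in all, against 5282 in replicate 1.

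The cofactor gene eya (FBgn0000320, 2L:6527447-6546976, minus strand, 3 TSSs) had weak peaks in every relaxed list. The best pooled one, 2L:6514721-6515130, lay in an intron of CG31637, 12521 bp past the 3′ end of eya, with a signal of 43.6 and a q of 0.28 at rank 15165. The best of replicate 1 ranked 8106 with a q of 0.19. The best of replicate 3, 71 bp upstream of an internal TSS, ranked 13461 with a q of 0.043, and no peak of replicate 1 or of the pooled list overlapped it. No eya site was therefore at q of 0.05 or less in more than 1 list.

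The Pipsqueak-domain gene dan (FBgn0039286, 3R:25184383-25192806, plus strand) is nested in the gene lobo, which runs on the other strand. Its best pooled peak, 3R:25178557-25178966, under the dan window printed above, was in a lobo intron 5621 bp upstream of dan, with a signal of 78.7 and a q of 0.0071 at rank 6565. It ranked 5925 in replicate 1, with a q of 0.080, and 9579 in replicate 3, with a q of 0.0034. Replicate 3 also had a peak 3861 bp downstream of a dan TSS, in introns of dan and lobo, with a q of 0.041 at rank 13376. Its relative danr (FBgn0039283, 3R:25138072-25139903, plus strand), 44.5 kb away, had 1 peak in all, near the end of the pooled list at rank 29472 with a q of 0.72, in lncRNA:CR46474. At danr enrichment above background was not detectable in these lists.

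Ordered by the signal of the best pooled peak, the genes ran from so through ey, toe, dan, Optix, eyg and eya to danr, with toy unlisted. A higher best peak was found for 10.8% of all protein-coding genes in the case of so, 21.8% for ey, 22.3% for toe, 24.8% for dan and 28.9% for Optix. The figures were 36.4% for eyg, 37.6% for eya and 48.5% for danr. Over the 6805 genes with a pooled peak the quartiles of the best signal were 45.7, 80.4 and 168. Of the 8 genes listed, so was above the upper quartile, ey and toe were above the median, dan, Optix and eyg lay between the lower quartile and the median, and eya and danr were below. The pooled list has no replicates of its own, so the order has no error of its own, and the replicates order neighbours differently. By the best peak of each replicate, so was first in replicate 1, at 895, ahead of ey at 5589, and second in replicate 3, at 3841 after ey at 3791. The gene dan was ahead of toe in replicate 1, at 5925 and 6819, and behind it in replicate 3, at 9579 and 4648. Optix, at 7255, was ahead of dan in replicate 3.

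Of the 32 pooled peaks of these genes, 14 overlapped by at least 1 bp a peak of each replicate list, or 43.8% (95% Wilson interval 28.2 to 60.7, covering only the number of peaks), against 56.7% of all 30000, a share inside that interval. Of the 14, 2 neighbouring peaks at dan overlapped the same replicate peaks. Another 9 overlapped replicate 1 alone, 6 replicate 3 alone and 3 neither. On chromosome 4 the share was 27.7% of 94 pooled peaks. Of the 7 pooled peaks at q of 0.05 or less, all 7 overlapped replicate 3 and 5 overlapped replicate 1. The same shares over all 9178 pooled peaks at that q were not computed, so these counts cannot be called high or low. Among the 46 peaks of replicate 1, 34.8% were found in replicate 3, against 54.7% of the whole list. With ey and toy left out this became 15 of 27, or 55.6%. In the other direction 47.4% of the 38 peaks of replicate 3 were in replicate 1, against 56.7%, and 45.9% without ey and toy.

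The 5 pooled peaks at q of 0.05 or less that overlapped both replicate lists differed in which replicate ranked them higher. For the promoter of ey the log2 ratio of ranks was 1.53, above 93.3% of all pooled peaks in both lists, and for the first toe site it was 1.70, above 95.1%, both ranked higher by replicate 3. The peaks at so, dan and the second toe site went the other way, at -2.10, -0.69 and -0.68. As a yardstick, the 4107 pooled peaks at q of 0.05 or less that were outside the IDR list and in both replicate lists had a median log2 ratio of -0.03, and the 5% and 95% points were -1.98 and 2.06. The ratios of ey, dan and both toe sites were inside that range. The so promoter belongs with the 4859 pooled peaks overlapping an IDR peak, for which these points were -1.47 and 1.89, and it was below them.

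**Figure D3:**
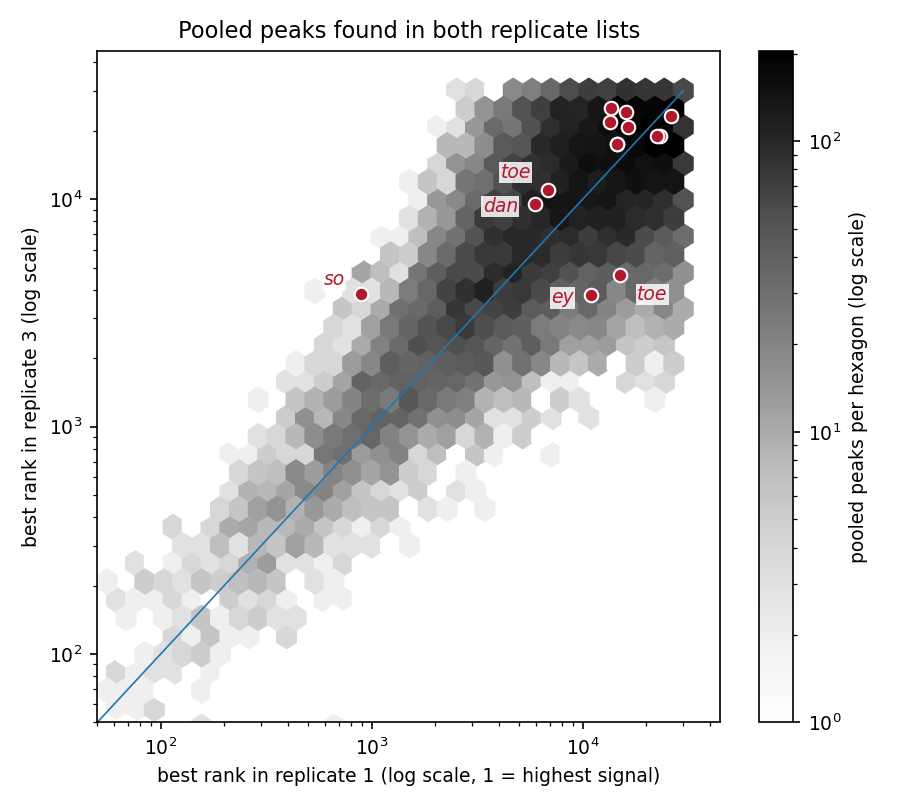
Rank in replicate 1 (x axis, log scale) against rank in replicate 3 (y axis, log scale) of pooled peaks found in both replicate lists, as hexagons shaded by the number of peaks, with the 14 peaks of the 9 genes as red points (those at q of 0.05 or less in the pooled list are named) and the line of equal ranks in blue. The so promoter, at 895 and 3841, is above the line, and the ey promoter and the first toe site are below it.

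By position, 12 of the 32 pooled peaks, or 37.5% (95% Wilson interval 22.9 to 54.7), had their summit within 500 bp of a TSS, against 23.7% of all pooled peaks. Of these 12, 9 were at a TSS of the gene itself and 3 at that of another annotated gene. Introns held 10, or 31.2%, against 49.5%, and intergenic DNA 6, or 18.8%, against 21.2%. All 6 intergenic summits were between toe and eyg. Exons other than coding or UTR sequence held 3, or 9.38%, against 1.06%, a coding exon 1, and UTRs 0. In 19 of the 32 the summit was outside the body of the gene it was assigned to. The same share over all pooled peaks was not computed.

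Where these genes lacked an IDR peak, the closest one belonged to another gene, which follows from the assignment rule. From a TSS of eyg the nearest IDR summit was 15.0 kb away, at the promoter of CG33725, and from eya it was 15.2 kb away, at the promoter of Trmt6 with a signal of 520. From Optix the distance was 20.0 kb, to an intronic peak nearest to CG12769 that had a signal of 825 and ranked 55. From dan it was 22.5 kb and from danr 69.5 kb, to the same peak at Cad96Ca. From toe it was 23.9 kb (SCaMC), from toy 37.5 kb (PlexA) and from ey 37.6 kb (gw). The median over the 9 genes was 22.5 kb, against 10.7 kb over all protein-coding genes, whose upper quartile was 26.2 kb. For so, at 0.241 kb, 8.91% of genes had a nearer IDR summit, and for the others between 60.3% and 92.7% did. These shares are over genes of any territory. For the others they follow in part from the lack of an assigned IDR peak.

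**Figure D4:**
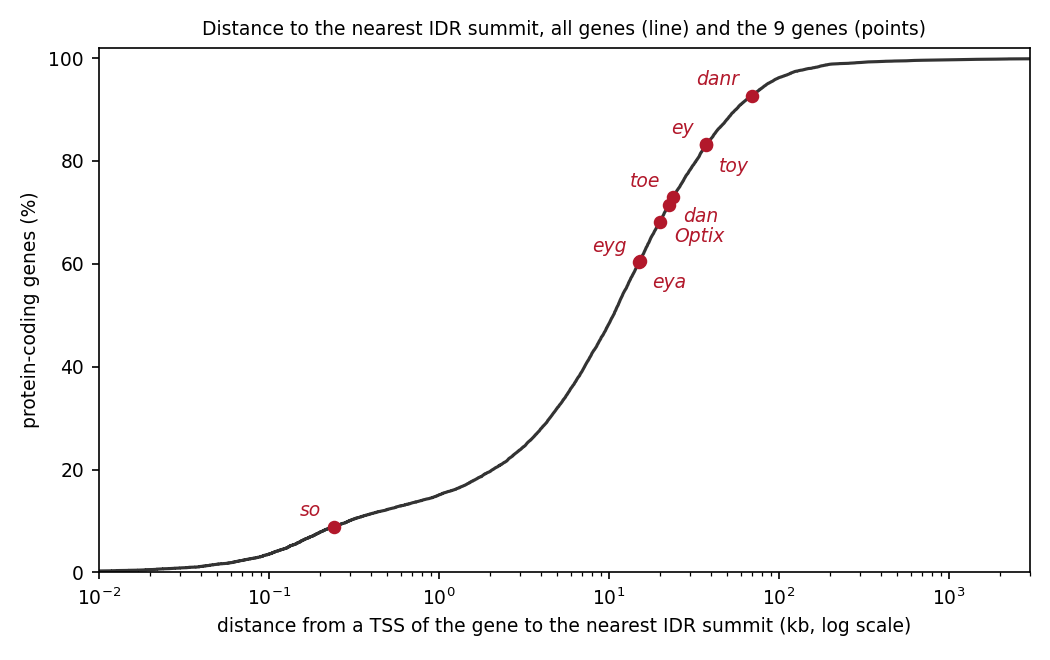
Distance in kb from a TSS of a gene to the nearest IDR summit (x axis, log scale) against the cumulative percent of all protein-coding genes (y axis), with the 9 genes as red points on the curve. The gene so is at the low end, at 0.241 kb, and the other 8 are between 15.0 and 69.5 kb.

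IDR peaks were also present at other genes of the circuit and at relatives of the 9. Of 9 network genes and partners 5 had one. These were dac itself with 3 peaks (best signal 217), tsh with 1 (130), the homeodomain cofactor gene hth with 4 (214), and the corepressor genes CtBP with 1 (274) and gro with 1 (559), while tio, nmo, exd and ato had none. Their median territory was 14.8 kb. Of 7 other Pax and sine oculis family genes, 1 had IDR peaks. This was Poxm, with 2 peaks and a best signal of 539 at its promoter, and prd, gsb, gsb-n, sv, Poxn and Six4 had none. All 7 Pipsqueak-domain genes listed beside dan and danr had IDR peaks, at psq (9 peaks, best signal 368), Eip93F (5, 295), bab1 (3, 174), bab2 (1, 266), rib (1, 189), lov (1, 147) and cag (1, 385). Their median territory was 66.7 kb, longer than that of dan at 31.6 kb and danr at 26.4 kb. The background is again the 18.9% of all genes, or 43.4% of genes with a territory at least as long as the shortest of the 9. No share was computed for genes with territories near 66.7 kb. The lists differ in territory, so their counts are not set against each other.

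The genes whose best peak ranked most like that of so were taken from the 5209 genes with a nearest-TSS peak in both replicate lists, by Euclidean distance in log2 rank over these 2 libraries. They were Ir94d, at ranks 786 and 3241, CG2017, at 1111 and 3684, and CG3770, at 790 and 3196, with distances of 0.308, 0.318 and 0.321.

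Each of the 5 motifs was counted on both strands in 300 bp around the summit. The Sine oculis core TGATAC was in 4 of the 32 pooled windows, or 12.5% (95% Wilson interval 4.97 to 28.1), against 8.70% of IDR windows and 6.90% of all pooled windows. They were the ey promoter, a site at the promoter of dan, a site upstream of Optix and a site upstream of eya. The GAGA factor sequence GAGAGAG was in 2, both at dan, against 9.91% of IDR and 7.19% of pooled windows. The E-box CAGCTG was in 1, at the promoter of Optix, against 14.4% and 13.5%. The Scalloped sequence CATTCC was in 5, or 15.6%, against 9.98% of IDR and 12.6% of pooled windows, and TGTTTAC was in 2, or 6.25%, against 6.84% and 6.44%. The 95% Wilson interval of each of the 5 shares contained the share over all pooled windows. The windows of the 9 genes had a median GC content of 47.0%, from 28.7% to 55.7%, against 41.0% over all pooled windows.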

How the data were processed

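The members and gene lists were chosen with earlier results of these data known. The authors deposited peak lists for 2 biological replicates and their pool, in dm6, with the signal of each peak on a scale that is not stated and its q-value as −log10 q. Per the deposited text notes, the IDR list was derived from both replicate lists and the pooled list. The aligner, peak caller, versions, IDR threshold and read depth were not given in the sources used here. A control library named in the labels and lists on dm3 were not analysed here. Computed here: summits were assigned to genes of Ensembl release 115 (13945 protein-coding, 3951 non-coding), tied TSSs going to every tied gene. Promoter summits (500 bp or less from any TSS) were classed first, then coding exon, UTR, other exon, intron and intergenic. Overlap meant at least 1 bp. q, capped in each list, was used as a threshold of 0.05, with 0.01 as an alternative. Python 3.11.15, numpy 2.4.6, pandas 2.3.3, scipy 1.17.1 and matplotlib 3.10.9 were used. The assignment of summits to genes was tested on simulated positions. The genes named were all 9 members, their IDR peaks, their best peak per list, their pooled peaks at q of 0.05 or less, listed relatives with an IDR peak (at most 6 per list by signal; lov and the relatives without one were named after their values were seen) and the 3 genes most like so. No test was made, because there is 1 group, no control was analysed and the genes were chosen with earlier results of these data known. Alternatives covered the list, the assignment rule, the q threshold, the overlap rule, the motif window and each replicate left out.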

Additional observations from a re-analysis of the deposited data

How the results depend on the processing

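The count of 1 gene with an IDR peak, beside 18.9% of all genes, was also 1 with IDR peaks above the median signal (11.7% of all genes), with the highest pooled peaks (18.9%), with the nearest TSS only (17.6%), with non-coding TSSs added (17.8%) and with the body or 5000 bp around it (37.6%). With the gene body only, both the count of IDR peaks and that of genes with one were 0 (10.5%). With each replicate left out, both counts ranged from 1 to 2, the second gene being ey when replicate 3 stood alone. The 5 genes with a pooled peak at q of 0.05 or less were above the share of all genes, 29.8%. With the body or 5000 bp around it they became 3, below the share of all genes, 53.3%. For the relaxed lists no share was computed among genes with territories as long. The count ranged from 1 (replicate 1 alone, so) to 6 (replicate 3 alone) with a replicate left out. The count was 4 at q of 0.01 or less, beside 25.7%. The 32 assigned peaks were 29 by nearest TSS only, 24 with 5000 bp around the body, and 38 to 46 in the replicates. The share in both replicates fell from 43.8% to 34.4% with either stricter overlap rule, and to 46.7% and 45.9% from 56.7% for all pooled peaks. Motif counts moved by at most 1 with windows of 200 and 400 bp. No paired analysis was possible because there is 1 group and no test. A planned comparison of protein sequences within gene pairs was not run. Depth is unknown, so what it limits cannot be stated, and with 2 replicates no error of a rank can be given.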
